A study of Mus musculus with 2 samples.

Results

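Antisense genes are loci whose transcripts run on the DNA strand opposite to another gene. The gene annotation deposited with a single-cell study of the mouse cochlea held 2243 genes of the antisense biotype among 27998 mouse genes, beside 22048 protein-coding and 3707 lincRNA genes. All 2243 were taken. A partner was any protein-coding gene on the opposite strand whose span, from the first to the last annotated base, overlapped the span of the antisense gene by at least 1 base. A partner was found for 1974 antisense genes (88%), in 2256 pairs with 1937 partner genes, and 269 antisense genes had none.

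The study captured single cochlear cells in 2 libraries, 1 from cochleae given an Anc80-GFP control virus and 1 from cochleae given an Anc80-Ikzf2 virus. Both came from Myo15-Cre;Ai14 mice at postnatal day 8, in which Cre recombinase from the hair cell gene Myo15 turns on the red protein tdTomato, and tdTomato cells were sorted before capture. The labels do not give the number of animals. Values per library were not analysed here, so nothing below is an expression level, and whether cells were hair cells by their markers was not examined.

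Antisense transcripts arise from promoters shared with the gene opposite, from promoters inside that gene, or from neighbours whose transcription runs on past their own end. Well-studied ones such as Tsix, Airn and Kcnq1ot1 silence genes in cis, while for most antisense genes no function is established. In droplet libraries primed from the poly(A) tail, reads come mostly from near the 3′ end of an RNA. An antisense exon there lies in the stretch where most reads of the partner would arise. Without strand, reads that lie in exonic bases shared by a gene and its antisense gene cannot be told apart. The sources used here do not say whether strand entered the counting.

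The pair closest to the design of the study was Ikzf2 and Gm29114. Ikzf2 encodes Helios, a zinc-finger transcription factor needed for the maturation of outer hair cells, and was the gene delivered by the virus. Gm29114 (ENSMUSG00000101156, chr1:69513932-69547707, plus strand, GRCm38) had 1 transcript of 4 exons with 39, 392, 232 and 1845 bases. It began beyond the 3′ end of Ikzf2 (ENSMUSG00000025997, chr1:69531214-69687245, minus strand) and ended inside it, which is the tail-to-tail layout, with a shared span of 16494 bases. The exons met at 1 place. The third exon of Gm29114 covered the whole of a coding exon of Ikzf2 at chr1:69542227-69542370, exon 7 of 8 in transcript Ikzf2-005, with 28 further bases on one side and 60 on the other. That coding exon, with exactly these bounds, was in 5 of the 9 annotated Ikzf2 transcripts, and all 5 were among the 7 protein-coding ones. The antisense exon is shown because it holds the Ikzf2 exon together with both of its splice sites in mirror image: capitals mark the 144 bases opposite the Ikzf2 exon. The lower-case ac before them and ct after them are the complements of the GT and AG that flank an exon on the Ikzf2 strand. Exon sequences here and below come from GENCODE M21 transcripts (GRCm38) with the same identifier, version and exons as in the deposited annotation.
Gm29114 exon 3, chr1:69542199-69542430, plus strand: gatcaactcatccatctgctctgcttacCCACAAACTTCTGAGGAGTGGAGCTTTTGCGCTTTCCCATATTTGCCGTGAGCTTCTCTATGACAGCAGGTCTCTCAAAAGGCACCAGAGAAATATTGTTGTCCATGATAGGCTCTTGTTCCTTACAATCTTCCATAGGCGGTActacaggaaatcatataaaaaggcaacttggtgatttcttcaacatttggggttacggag
Ikzf2 exon 7, chr1:69542227-69542370, minus strand: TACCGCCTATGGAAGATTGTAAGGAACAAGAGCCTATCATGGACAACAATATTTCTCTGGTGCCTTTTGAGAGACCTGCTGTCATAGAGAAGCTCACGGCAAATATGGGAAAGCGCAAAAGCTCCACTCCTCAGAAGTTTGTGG

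No antisense exon fell in the last 500 exonic bases of any Ikzf2 transcript. The last exon of Gm29114 lay within an Ikzf2 intron. Its own 3′ end, printed next with capitals marking the AATAAA polyadenylation signal, lay 5337 bases past the shared exon, and 17 bases followed the signal. The 3′ end of Emx2os, described further on, is printed beside it because the same number of bases followed its signal, and that of Gm12000, which lies inside the related gene Ikzf1, because it held neither signal searched.
Gm29114 3′ end, chr1:69547658-69547707, plus strand: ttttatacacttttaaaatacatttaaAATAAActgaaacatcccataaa
Emx2os 3′ end, chr19:59425104-59425153, minus strand: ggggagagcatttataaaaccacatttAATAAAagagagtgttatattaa
Gm12000 3′ end, chr11:11695133-11695182, minus strand: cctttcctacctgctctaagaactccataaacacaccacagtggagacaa

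Whole coding exons inside antisense exons were not limited to Ikzf2. In 297 pairs, an antisense exon contained 1 or more internal coding exons of the partner from end to end, and 455 such exons were found in 294 partners, with a median length of 117 bases. For 446 of them the antisense sequence could be read on both sides, and 435 (97.5%) had AG before and GT after on the sense strand. The exon bounds are those of annotated partner models, so this share describes the annotation of the partners. Among partners with roles in the inner ear, 8 had 10 such exons. They included exons of Ikzf2, Kcnq1, Cacna2d2, Homer2, Cdc14a, Ift88 and Axin2. The exon of Kcnq1, a potassium channel of the stria vascularis and the vestibular dark cells, is shown in capitals throughout because Kcnq1ot1 covers all of it. The same holds for exon 2 of Cacna2d2, an auxiliary subunit of voltage-gated calcium channels, covered by Gm17141.
Kcnq1 exon 11 of 16, chr7:143261256-143261376, plus strand: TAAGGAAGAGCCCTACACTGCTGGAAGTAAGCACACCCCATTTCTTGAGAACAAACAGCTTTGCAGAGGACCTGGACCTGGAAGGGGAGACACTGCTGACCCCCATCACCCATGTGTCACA
Cacna2d2 exon 2 of 38, chr9:107426053-107426134, plus strand: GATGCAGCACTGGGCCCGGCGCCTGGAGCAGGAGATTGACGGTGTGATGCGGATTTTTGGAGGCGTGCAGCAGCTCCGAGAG

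Splice sites of antisense transcripts were also found inside the coding exons of partners. A donor site is the first pair of intron bases after an exon, usually GT, and an acceptor site the last pair before the next exon, usually AG. There were 312 antisense donors inside partner coding exons, of which 301 (96.5%) read GT on the antisense strand and 8 (2.56%) read GC. Of 370 antisense acceptors there, 367 (99.2%) read AG. Over the coding sequences of 1869 partners, GT made up 5.83% and AG 7.17% of all dinucleotides on the opposite strand. All sites are bounds of annotated models, so these shares describe the annotation. Whether the sites are used in cells was not tested. In non-coding exon parts of partners, 315 of 342 donors (92.1%) read GT and 258 of 267 acceptors (96.6%) read AG. For inner ear partners all 15 donors and all 8 acceptors in coding exons, in 15 partners, read GT and AG. No antisense exon had both bounds in common with a partner exon, and 3 of 9362 antisense splice bounds, in 2 pairs, fell on a partner splice bound. The lines below show 40 bases of the antisense strand that lie wholly within a coding exon of the partner. Capitals mark the first 2 intron bases at a donor and the last 2 at an acceptor, so the same letters code for protein on the other strand.
Gm13256 donor in Gata3, chr2:9877426-9877465, plus strand: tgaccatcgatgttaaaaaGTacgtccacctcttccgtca
Gm26626 donor in Runx1, chr16:92613686-92613725, plus strand: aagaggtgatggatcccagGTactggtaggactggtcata
9530036O11Rik donor in Shh, chr5:28458428-28458467, plus strand: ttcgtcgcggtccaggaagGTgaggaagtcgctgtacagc
A830082K12Rik donor in Nr2f1, chr13:78198204-78198243, plus strand: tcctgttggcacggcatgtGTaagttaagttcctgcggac
Gm26918 donor in Pclo, chr5:14539720-14539759, minus strand: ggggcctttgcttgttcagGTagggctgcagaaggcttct
Gm26954 acceptor in Pclo, chr5:14714433-14714472, minus strand: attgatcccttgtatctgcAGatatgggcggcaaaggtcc
Gm42875 acceptor in Rimbp2, chr5:128770246-128770285, plus strand: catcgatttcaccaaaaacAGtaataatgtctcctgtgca
Gm27232 donor in Rfx7, chr9:72619454-72619493, minus strand: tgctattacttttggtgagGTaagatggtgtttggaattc

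Pairs were sorted by layout from the gene spans. Nested pairs, with the antisense gene wholly inside its partner, numbered 1281 (56.8%). In 535 head-to-head pairs (23.7%) the antisense gene started inside the partner and ran out past the partner start. In 333 tail-to-tail pairs (14.8%) it started beyond the partner end and ended inside. In 107 pairs (4.74%) it enclosed the partner. Most antisense genes had a single partner (1816), while 127 had 2 and 31 had 3 or more. Among partners, 1702 faced 1 antisense gene, 180 faced 2 and 55 faced 3 or more. Seen from the side of the protein-coding genes, 1937 of 22048 (8.79%) had an antisense gene. Of the lincRNA genes, a biotype meant for loci between genes, 414 of 3707 (11.2%) overlapped an opposite-strand protein-coding gene by the same rule.

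**Figure D1:**
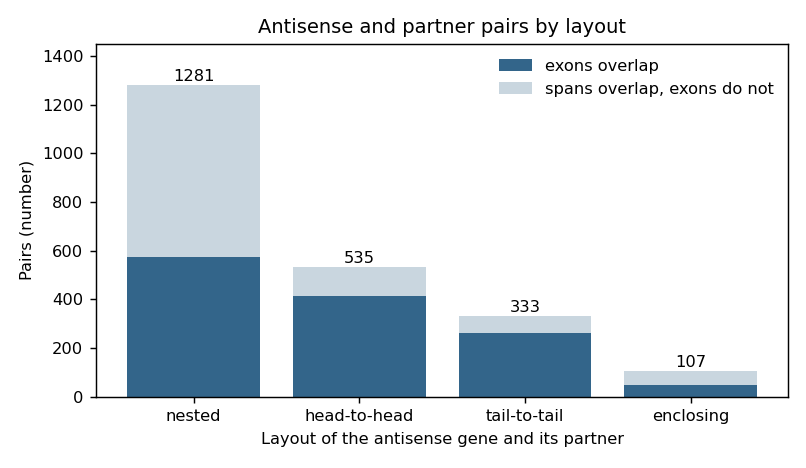
Number of antisense and partner pairs in each layout, with the number whose exons overlap in the dark lower part of each bar. Nested pairs are the most numerous at 1281, and exons overlap in most head-to-head and tail-to-tail pairs.

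Overlap of spans did not always bring exons together. Exons of all transcripts of each gene were merged, and 1305 pairs (57.8%), with 1219 antisense genes (54.3%), shared at least 1 exonic base. This left 1245 protein-coding genes (5.65%) with an antisense exon over one of their own. The shared length had a median of 239 bases (quartiles 118 and 443). Exons overlapped in 416 head-to-head pairs (77.8%) and 263 tail-to-tail pairs (79%), but in 576 nested (45%) and 50 enclosing pairs (46.7%). Of the 705 nested pairs without shared exonic bases, 564 lay inside 1 partner intron, and in 141 the antisense span reached across partner exons that its own introns skipped.

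Where the exons met differed by layout. Of 460295 shared bases, 48.1% were coding in the partner, 17.8% were 5′ UTR, 22.5% were 3′ UTR and 11.6% were exons of its non-coding transcripts. In head-to-head pairs the 5′ UTR took 44.3% of the shared bases and the 3′ UTR 1.38%. In tail-to-tail pairs the order was turned round, with 0.377% in the 5′ UTR and 49.5% in the 3′ UTR. Nested pairs shared 53.5% in coding sequence, 12.2% in the 5′ UTR and 18.9% in the 3′ UTR. Coding bases were the largest class in enclosing pairs, at 63.6%. Some coding sequence was covered in 944 pairs. The layout fixes which end of a partner can be reached, so the UTR shares follow in part from how pairs were sorted.

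Head-to-head antisense genes started close to the start of the partner. The distance between the starts had a median of 819 bases (quartiles 416.5 and 2275), and 295 of the 535 pairs (55.1%) had starts within 1000 bases. Starts lay within 100 bases in 34 pairs, beyond 100 and up to 500 bases in 133, up to 1000 in 128, up to 5000 in 164 and farther in 76. Exons overlapped in all 34 of the closest pairs and in 35 of the 76 most distant. Of the nested antisense genes, 301 (23.5%) started in the first of 3 equal parts of the partner, 376 (29.4%) in the middle part and 604 (47.2%) in the last, counted by pair. A nested antisense gene runs toward the partner start and must end inside the partner, so its own start lies at least its own span away from the partner start. These shares are therefore fixed in part by the sorting and are no contrast with head-to-head pairs.

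**Figure D2:**
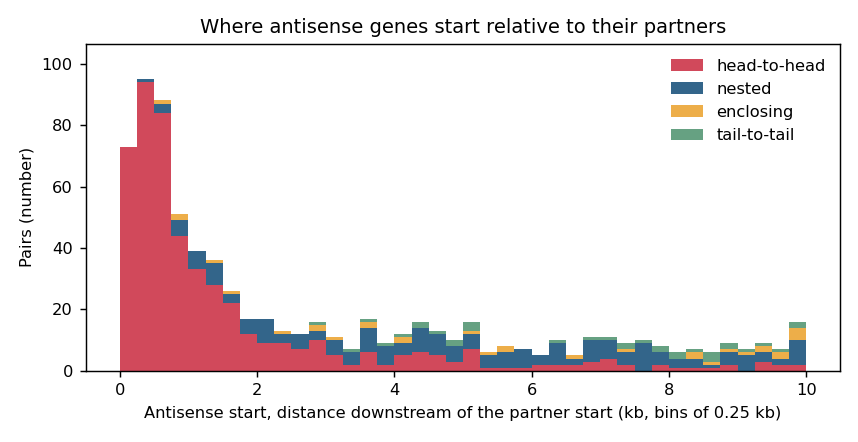
Distance of the antisense start downstream of the partner start, in kb along the partner and in bins of 0.25 kb, as the number of pairs stacked by layout, for pairs within 10 kb. Head-to-head pairs are most numerous within the first kilobase, where 9 nested pairs start. The nested layout limits starts there in part, so the 2 numbers are no contrast.

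Antisense genes were short and had few exons. Their span had a median of 5369 bases (quartiles 2066 and 14288), close to 4815 for lincRNA genes and below 16568.5 for protein-coding genes. The longest transcript had a median of 784 exonic bases, beside 1008 for lincRNA and 2573 for protein-coding genes. Counting exons in the transcript with most exons, 138 antisense genes (6.15%) had 1, 985 (43.9%) had 2, 569 (25.4%) had 3, 319 had 4 and 232 (10.3%) had 5 or more. The transcript support level, the rating of how well transcript evidence backs a model, was 1, the best, for 45.9% of antisense genes, 46.3% of lincRNA genes and 80.3% of protein-coding genes. A single transcript was annotated for 76.5% of antisense genes. Layouts differed in shape: median spans were 3705 bases for nested, 7876 for head-to-head, 12363 for tail-to-tail and 29690 for enclosing antisense genes, counted by pair. Genes that were head-to-head in every pair had 1 exon in 12.5% of cases, against 2.29% of those that were tail-to-tail in every pair. Partners in nested pairs had a median span of 103506 bases and enclosed partners 4862.

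**Figure D3:**
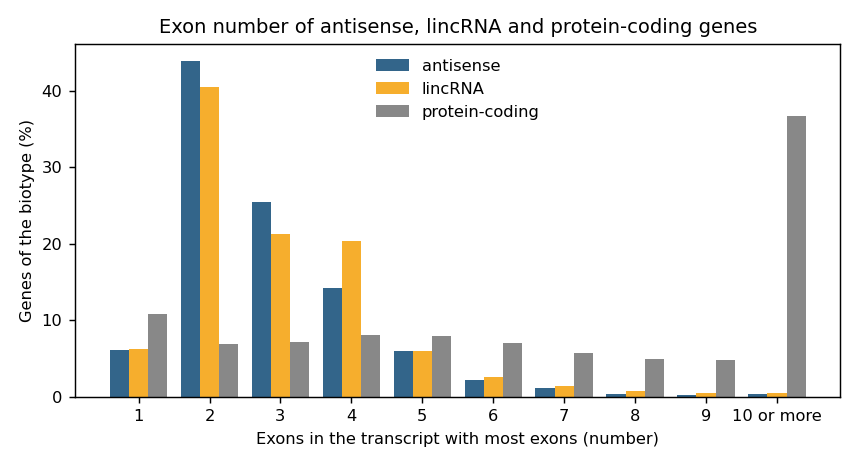
Share of genes (%) by the number of exons in the transcript with most exons, for antisense, lincRNA and protein-coding genes. Antisense genes peak at 2 exons (43.9%), and few have 5 or more (10.3%).

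The extremes were set by a few loci. The longest antisense gene was 9530036O11Rik (chr5:28458274-28933995), which spanned 475722 bases and ran head-to-head from inside Shh. Gm10634 on chromosome 9 had the most exons, 26, over 86636 bases. Gm29994, a gene of 1193 bases with 1 exon in the protocadherin gamma cluster of chromosome 18, counted 25 partners, whose gene models overlap one another there. Gm42416 on the same chromosome faced 9 antisense genes. Protocadherin genes of chromosome 18 as a whole, which encode cell adhesion proteins, were partners in 92 pairs. The longest nested exon overlaps were 5142 bases between A630072M18Rik and Rsbn1l and 2365 between Zfhx2os and Zfhx2, a zinc-finger homeobox gene. In tail-to-tail pairs they were 3961 bases between Gm16638 and Tmc3, a relative of the mechanotransduction channel gene Tmc1, and 2696 between Gm12758 and 4931406P16Rik. Head-to-head, Gm10545 and Pcdha11 shared 2486 bases, and Gm26673 and the potassium channel gene Kcna6 shared 2355. Among enclosing pairs, D030055H07Rik covered 2203 exonic bases of Glyctk, a glycerate kinase gene, and Gm29050 covered 1445 of Ldhal6b, the whole span of that gene.

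Most antisense genes carried placeholder names: 1484 (66.2%) were Gm followed by a number and 375 (16.7%) ended in Rik. Names of the kind that ends in os or as, formed from the gene opposite, were held by 259 (11.5%), and 223 of these (86.1%) had a partner of that name. Among known loci, Nespas lay head-to-head with the imprinted gene Gnas and shared 988 exonic bases. Airn, which silences Igf2r in cis, lay head-to-head with Igf2r and tail-to-tail with Mas1, with no exonic base shared with either. Tsix had no protein-coding partner, since the gene it faces, Xist, was annotated as a lincRNA. Otx2os1 was in the file as a lincRNA. Wt1os enclosed Gm11060, sharing 31 exonic bases. Six3os1, Foxd2os and Hoxa11os were not matched under those symbols.

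Some of the 269 antisense genes without a partner lay close to an opposite-strand protein-coding gene. The nearest opposite-strand protein-coding gene was divergent, pointing away from the antisense gene, in 175 cases and convergent in 94. The gap had a median of 3684 bases and was within 1000 bases for 97 genes (36.1%). Of these 97, 91 were divergent and 6 convergent, and 31 divergent genes lay within 100 bases. Named cases with so small a gap, chosen after their values were seen, were 2810001G20Rik at 15 bases from Cox10, which acts in heme synthesis, and AV099323 at 42 bases from Pcna, the sliding clamp of DNA replication. An opposite lincRNA was overlapped by 14 of the 269, and 5 overlapped only another antisense gene.

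Inner ear partners were taken from a list of 395 symbols in 7 groups, of which 392 matched 1 protein-coding gene each. Of these 392, 56 (14.3%) had an antisense gene, beside the 8.79% of all protein-coding genes, and 35 (8.93%) had exon overlap, beside 5.65%. The groups ranged widely. The share was 24.5% for transcription factors (24 of 98), 22.7% for ribbon synapse genes (5 of 22), 17.6% for channels and transporters (6 of 34) and 13% for signalling genes (12 of 92). It was 6.38% for hair bundle and transduction genes (3 of 47), 6.35% for other hearing genes (4 of 63) and 5.56% for junction and matrix genes (2 of 36). Over all protein-coding genes the share was higher in longer genes. Listed genes had a median span of 32851.5 bases, beside 16568.5 for all protein-coding genes, and protein-coding genes with an antisense gene had 44671. The 56 listed genes with an antisense gene had a median span of 111466 bases. The order of the groups by share was not their order by median span. Median spans over all genes of a group were 11097 bases for transcription factors, 98569.5 for ribbon synapse genes and 63842 for hair bundle genes. They were 39511.5 for channels and transporters, 37366 for junction and matrix genes, 35908.5 for signalling genes and 31543 for other hearing genes. In 4 equal classes of all protein-coding genes by span, from short to long, 3.1%, 5.93%, 8.27% and 17.8% had an antisense gene. Listed genes there had shares of 5.88% (3 of 51), 8.89% (8 of 90), 6.25% (5 of 80) and 23.4% (40 of 171). Of the 392, 171 were thus in the class of longest spans. The shares in the shorter classes rest on 3, 8 and 5 genes with an antisense gene. The part of gene length in the group shares was not tested.

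**Figure D4:**
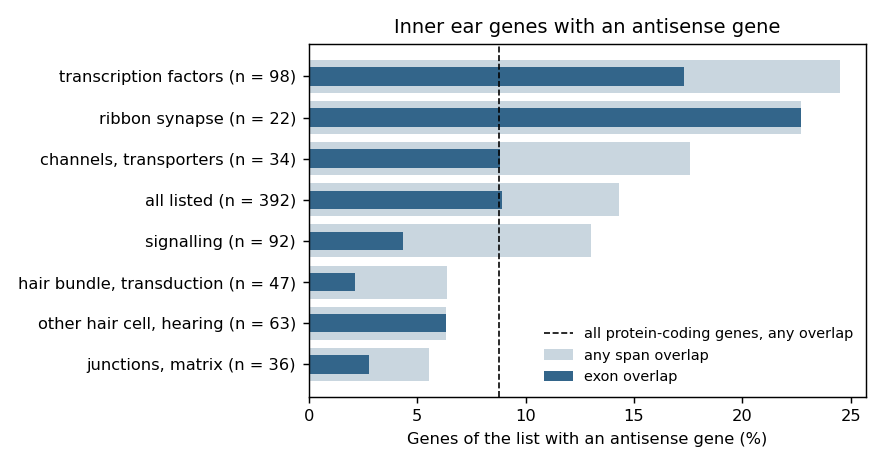
Share of listed inner ear genes (%) with an antisense gene, by group, with the number of genes in each. Light bars are any span overlap, dark bars exon overlap, and the dashed line is the 8.79% of all protein-coding genes. Transcription factors (24.5%) and ribbon synapse genes (22.7%) are highest.

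Among the 75 inner ear pairs, 53 were nested (70.7%, beside 56.8% of all pairs), 16 head-to-head (21.3%, beside 23.7%), 3 tail-to-tail (4%, beside 14.8%) and 3 enclosing (4%, beside 4.74%). Exons overlapped in 38 of them (50.7%, beside 57.8% of all pairs). Developmental transcription factors made up most of the head-to-head pairs with shared exons. Emx2, which sets the orientation of hair bundles, shared 264 bases of 5′ UTR with Emx2os, whose start lay 263 bases inside it. Emx2os then ran 33532 bases with 4 exons. Prox1, a homeobox gene of supporting cells, shared 133 bases of 5′ UTR with Prox1os, and the starts lay 418 bases apart. Grhl2, an epithelial factor mutated in hearing loss, shared 169 bases of 5′ UTR with Gm16136 at a distance of 273 bases. Tbx3, a T-box factor, shared 115 bases of 5′ UTR with Tbx3os1, with starts 696 bases apart. These 4 antisense genes reached only the 5′ UTR of their partners.

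Other head-to-head antisense genes reached coding sequence. Lhx3, a LIM homeobox gene expressed in hair cells, shared 88 coding and 100 5′ UTR bases with Gm27196, which had 1 exon. Nr2f1, a nuclear receptor that acts in cochlear development, shared 123 bases with A830082K12Rik, of which 103 were coding. Tfap2a shared 45 coding and 66 5′ UTR bases with Gm26688. Outside the transcription factors, Itga8, an integrin subunit of the hair cell apex, shared 232 coding and 140 5′ UTR bases with E030013I19Rik. Shh, the secreted signal that patterns the ventral otocyst, shared 173 coding and 273 5′ UTR bases with 9530036O11Rik. Vangl1, a planar polarity gene, shared 8 bases of 5′ UTR with Gm16160, and Myh14, a non-muscle myosin mutated in hearing loss, shared 60 with 2310016G11Rik. Igf1, Ctnnb1, Slc7a14 and Atp2b2 had head-to-head antisense genes with no shared exonic base.

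Nested pairs with shared exons were found in a further set of transcription factors. Gata3, needed for otic development, shared 93 coding and 62 5′ UTR bases with Gm13256, a gene of 2 exons and 1614 bases. Zeb2, a zinc-finger homeobox repressor, shared 374 bases of 5′ UTR and 93 of other exons with Zeb2os. Rfx7 faced both Gm27232, with 597 shared coding bases, and Gm27241, with 417. Casz1 shared 122 coding bases with Gm13205, and Runx1 shared 106 with Gm26626. For Meis1 all 896 bases shared with Gm16140 were in exons of non-coding Meis1 transcripts. The 3 enclosing antisense genes all belonged to homeobox gene loci: Hoxb3os covered 570 coding and 383 3′ UTR bases of Hoxb2, Dlx1as covered 335 bases of 3′ UTR of Dlx1, and Dlx6os1 shared no exonic base with Dlx6. Ikzf1, the relative of Ikzf2 that encodes Ikaros, held Gm12000 within 1 intron. Pax2, Lhx2, Prdm16 and Esrrg each held 2 nested antisense genes without exon overlap, and Zfhx3 held 1.

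**Figure D5:**
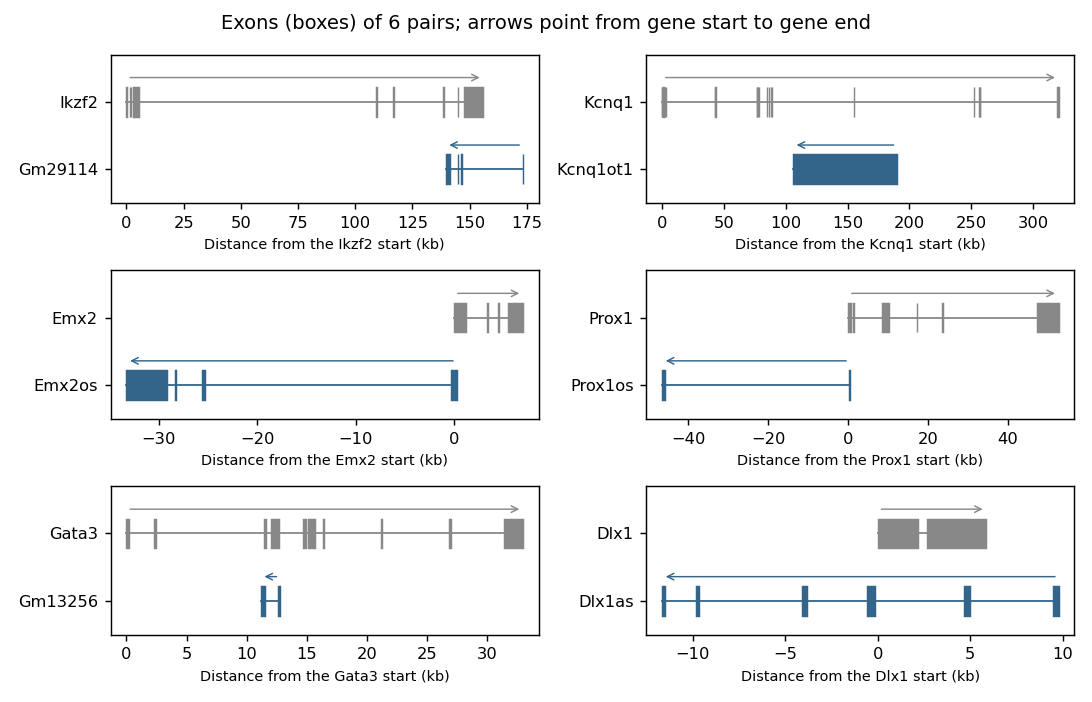
Exons (boxes) of 6 pairs, drawn to scale as the distance in kb from the partner start along the partner, with all transcripts merged and arrows running from gene start to gene end. Gm29114 enters Ikzf2 from beyond its end, Kcnq1ot1 and Gm13256 lie inside their partners, Emx2os and Prox1os leave past the partner start, and Dlx1as encloses Dlx1.

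All 5 ribbon synapse genes with an antisense gene shared exonic bases with it, and all their pairs were nested. Pclo, which encodes the active-zone scaffold piccolo, faced Gm26918 with 429 shared coding bases and Gm26954 with 496. Homer2, a postsynaptic scaffold gene mutated in hearing loss, shared 381 coding and 144 3′ UTR bases with RP24-225H21.4. Rimbp2, which links calcium channels to release sites, shared 34 coding bases with Gm42875. Cacna2d2 shared the 82 coding bases printed above with Gm17141, while Gm17118 lay within 1 intron. Cacnb2, a calcium channel beta subunit, shared 239 bases with Gm13269 and 111 with Gm10848, and these lay in exons of non-coding Cacnb2 transcripts.

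Among channels, Kcnq1 held 3 nested antisense genes. Kcnq1ot1 was a single exon of 84395 bases and shared 121 coding bases, whereas Gm28821 and 4933417O13Rik shared none. Kcnn2, the calcium-activated potassium channel behind efferent inhibition of hair cells, shared 284 coding bases tail-to-tail with A330093E20Rik. Kcnma1, the large-conductance potassium channel of mature inner hair cells, held a nested antisense gene within 1 intron. Of the hair bundle genes, Xirp2, an actin-binding protein of stereocilia, shared 168 coding bases with Gm13601, and Myo6 and Atp2b2 had antisense genes without exon overlap. Among other hearing genes, Serpinb6a shared 53 coding and 531 5′ UTR bases with 1110046J04Rik, and Cdc14a and the ciliary transport gene Ift88 shared 67 coding bases each, with Gm29151 and Ift88os. Of the signalling genes, Axin2, a Wnt target, shared 207 coding bases with Gm11670, and Fgf10 shared 123 exonic bases with Gm16263. Bmp4, Egfr, Nrp2, Ntrk3, Rbpj and Fgfr2 held nested antisense genes with no shared exonic base. The Fgfr2 gene row spanned 2960900 bases, its longest transcript 103734, and none of its 4 antisense genes overlapped that transcript. Fgfr2 was not alone in this. With each gene reduced to its longest transcript, overlap was also lost for partners that included Rbpj, Cacnb2, Cdc14a, Lhx3, Nr2f1, Tbx3, Myh14, Ctnnb1, Dlx1 and Hoxb2. The matrix gene Lamb3 held Gm37650 within 1 intron.

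The 3′ ends, near which most reads of libraries primed from the poly(A) tail lie, were examined separately. The window of 500 exonic bases was a chosen setting, and how reads were counted in these libraries was not examined. An antisense exon fell in the last 500 exonic bases of at least 1 transcript of 633 protein-coding genes (2.87%), which was 32.7% of the partners. By layout this held for 186 tail-to-tail pairs (55.9%), 37 enclosing (34.6%), 305 nested (23.8%) and 127 head-to-head (23.7%). Any 1 transcript was enough, short ones included, so the window need not be the main 3′ end of the gene. Shared bases of the 3′ UTR class, neither coding nor 5′ UTR in any transcript, were found in fewer pairs. These were 143 tail-to-tail, 19 enclosing, 110 nested and 10 head-to-head pairs. From the other side, 855 antisense genes (38.1%) had a partner exon in their own last 500 bases. Of the 392 listed inner ear genes 12 were concerned, beside 633 of all 22048 protein-coding genes (2.87%). They were Axin2, Cdc14a, Fgf10, Gata3, Homer2, Hoxb2, Kcnn2, Kcnq1, Myh14, Rimbp2, Serpinb6a and Zeb2. Among them only Homer2 (144 bases) and Hoxb2 (383) shared bases of the 3′ UTR class, and Myh14 shared only 5′ UTR bases.

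The last 50 bases of the longest transcript were searched on the transcript strand for the polyadenylation signals AATAAA and ATTAAA. Among 2181 antisense genes with a sequence (97.2%), 32.5% had AATAAA and 43.8% had either. The share with either was 40.4% for lincRNA and 71.4% for protein-coding genes. It was 51.8% for antisense genes in head-to-head pairs, 47.7% in enclosing, 43.3% in tail-to-tail and 40.5% in nested pairs. Antisense transcripts had a median GC content of 48.9%, between 45.6% for lincRNA and 49.3% for protein-coding genes.

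Promoters from RefSeq (GRCm38.p6) run from 250 bases before to 50 bases after a gene start and were matched by symbol for 16074 protein-coding (72.9%) and 795 antisense genes (35.4%). The ratio of observed to expected CpG dinucleotides is high in CpG islands, which mark many broadly used promoters. A ratio of 0.6 or more was found at 50.2% of all protein-coding promoters and 59.6% of partner promoters. It was 62.7% for partners in nested, 59.3% in head-to-head, 59.2% in tail-to-tail and 27% in enclosing pairs. Antisense genes themselves reached it in 25.7% of matched promoters, with 38.2% in head-to-head, 35.8% in tail-to-tail, 17.1% in enclosing and 14.9% in nested pairs, and lincRNA genes in 19.8%. TATAAA was present in the 50 bases before the start, read on the strand of the gene, at 2.16% of partner, 1.89% of antisense and 3.41% of all protein-coding promoters. The 250 bases before the start of Itga8 are printed because they lay wholly inside exon sequence of E030013I19Rik, and those of Prox1 because the starts of Prox1 and Prox1os were close and no antisense exon covered them. Capitals mark CG dinucleotides, 18 in Itga8 and 20 in Prox1, with ratios of 0.88 and 0.81.
Itga8 promoter, chr2:12301945-12302194, minus strand: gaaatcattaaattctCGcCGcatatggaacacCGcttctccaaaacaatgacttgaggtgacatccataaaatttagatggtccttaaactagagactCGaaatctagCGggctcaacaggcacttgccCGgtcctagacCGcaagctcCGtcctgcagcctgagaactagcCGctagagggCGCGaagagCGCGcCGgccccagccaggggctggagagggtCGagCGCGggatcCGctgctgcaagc
Prox1 promoter, chr1:190170828-190171077, minus strand: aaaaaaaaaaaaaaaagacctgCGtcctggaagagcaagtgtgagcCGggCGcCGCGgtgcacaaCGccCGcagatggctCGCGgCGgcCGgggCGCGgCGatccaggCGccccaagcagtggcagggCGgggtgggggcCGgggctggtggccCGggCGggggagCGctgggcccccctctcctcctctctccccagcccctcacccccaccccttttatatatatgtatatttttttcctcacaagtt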

How the data were processed

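The one deposited file used was the gene annotation, in GTF format and, per the file headers, on GRCm38.p4 with a gene build of 2016-01. Its values are coordinates, and it held 0 columns of per-sample values. The submitters' processing notes name Cell Ranger 2.0.2 with no role given. The 4 added custom sequences were left out. Exons of all transcripts were merged per gene, and overlaps, layouts and lengths were computed in Python 3.11.15 with NumPy 2.4.6 and drawn with Matplotlib 3.10.9. The geometry was tested on simulated data, where 200 of 200 pairs were placed as made. Genes are not replicates, so shares and medians are given without p-values. The members, the inner ear lists and the rules were chosen with earlier results of these data known. Named genes were listed partners with exon overlap, the 2 longest exon overlaps per layout, the extremes, and a short list of known loci. The comparison of the GFP and Ikzf2 libraries was not analysed here. Results on some named genes are not reported here.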

Additional observations from a re-analysis of the deposited data

How the results depend on the processing

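The number of antisense genes with a partner, 1974, was 1942 with overlaps of at least 100 bases, 1956 with protein-coding transcripts only, 2071 with partners within 1000 bases and 2731 with GENCODE M21. Spans of the longest transcripts, an alternative chosen after seeing the data, gave 1711. Nested, head-to-head and tail-to-tail counts and the 1305 pairs with exon overlap stayed within 1.5 times under each alternative run. Enclosing pairs fell from 107 to 70 when each antisense gene kept only the partner with the largest shared span. Without clone-named genes, 9 of 276 antisense genes had 1 exon, beside 138 of all 2243. The median length was 784 bases when counted over the exons of the longest transcript. Inner ear genes with an antisense gene numbered 35 when exon overlap was required and 44 (11.2%, beside 7.62% of all protein-coding genes) with longest transcripts, also chosen after seeing the data. Symbols, not identifiers, matched the lists, and models of weak support count as much as strong ones. No paired analysis was possible because a group here is 1 library and no fit was made.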

Other observations

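A later annotation of the same build, GENCODE M21, held 2959 antisense genes, and 677 of them were new. Of the 2243 deposited ones, 2161 (96.3%) kept the biotype and 29 were gone. Of 393 listed inner ear genes matched there, 73 (18.6%) had an antisense gene, beside 12% of all protein-coding genes. Partners that gained a first antisense gene there included Tmc1 and Loxhd1, both needed for hearing at the hair bundle, Adgrv1 and Triobp of stereocilia, the tectorial membrane gene Tecta, and Thrb, Bdnf and Irx3. None of these could be paired in the annotation deposited with the libraries.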
